A study of Mus musculus with 9 samples.

Results

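The genes described here make the machinery of mitosis: the kinases that start it, the checkpoint that delays it, the kinetochore, the motors of the spindle, the proteins that separate chromatids and those that divide the cell. They were the 57 mouse genes of a list chosen by known role, with earlier results of these data already known. Each was taken from the array's transcript cluster (the probes grouped for 1 transcript) that carries that gene's symbol and no other. A value was found for 55 of them, among 30050 genes measured. Ccnb1 and Foxm1 have no value here, because no cluster carried either symbol alone, and none of the 55 had more than 1 such cluster.

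The cells were those that the labels name HL-1, an immortalised line derived from mouse atrial cardiomyocytes, grown with 10% serum and treated at 80% confluence. The control group, Con, was given phosphate-buffered saline. The group DOX was given doxorubicin at 0.3 µM, and the group DOX_IFNg that same dose together with interferon gamma at 20 ng/ml. Each group has 3 arrays. No group of interferon gamma alone was analysed here, the time of treatment is not given in the sources used here, and all groups are 1 cell line. Nothing in the labels says that the arrays of a group came from separate cultures, so a p-value here reflects the scatter among arrays, and that scatter may be technical. Doxorubicin, an anthracycline used against tumours and toxic to the heart, poisons topoisomerase II and so leaves DNA breaks. Interferon gamma is a cytokine made by lymphocytes. Values are log2 expression, so a difference of 1 is a 2-fold change. A gene was called at a Benjamini-Hochberg adjusted p under 0.05 from limma, taken over all 30050 genes. A gene is said to be above background when its mean exceeds log2 4.72, the 95th percentile of 1539 odorant, vomeronasal and trace amine receptor genes.

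Most genes of mitosis are switched on together late in the cell cycle, from late S phase to the end of G2. Many of their promoters carry a short element near the start site, the cell cycle genes homology region or CHR, through which the DREAM and MuvB complexes hold them off in resting cells and, with B-Myb and Foxm1, turn them on before mitosis. CCAAT boxes, bound by the factor NF-Y, often lie just upstream of it. Cells arrested after DNA damage are known to lower these transcripts as a group.

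In control cells, 42 of the 55 genes lay above background, as did 36 in DOX and 39 in DOX_IFNg. The labelled cell type was borne out by few of its markers. Of 11 cardiomyocyte markers with a value, Nkx2-5 and Tnnt2 were above background in Con, while Myh6, Myh7, Nppa, Myl7, Myl4, Gata4, Ryr2, Pln and Gja1 were not. The skeletal muscle markers Myod1, Myog and Myh3 were above it and Myf5 was not. Among other cell types, 3 of 4 matrix markers with a value were above background in Con, against 0 of 4 endothelial markers and 1 of 4 immune markers, Cd14. The summed level of the matrix markers lay between log2 17.7 and 17.95 in Con, between 16.67 and 16.78 in DOX and between 16.65 and 16.69 in DOX_IFNg, so it moved with the treatment, and its part in the results below was not tested. The summed skeletal muscle markers moved too, from 8.57 to 8.80 in Con to between 7.34 and 7.63 in DOX and between 7.16 and 7.41 in DOX_IFNg, and their part was not tested either. Their members went different ways in DOX: Myog, a muscle regulator, fell by 3.42 (adjusted p = 5.57e-06) and Myh3 by 0.40 (adjusted p = 0.00115), while Myod1 rose by 0.76 (adjusted p = 0.0182). The summed cardiomyocyte markers lay between 8.71 and 8.88 in Con, between 8.20 and 8.26 in DOX and between 8.155 and 8.164 in DOX_IFNg, with Tnnt2, a thin-filament protein, falling by 1.24 in DOX (adjusted p = 5.32e-05), and their part was not tested.

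Arrays stood apart in 2 ways that touch these genes. Con replicate 3 was the lowest control array for 35 of the 55 genes, and its median gap to the mean of the other control arrays was -0.11. Con replicate 1 was the highest for 30. In addition, Con replicate 1, all DOX arrays and DOX_IFNg replicates 1 and 2 shared an identical column maximum of 19.93, whereas Con replicates 2 and 3 and DOX_IFNg replicate 3 did not. Those without it had maxima of 19.908, 19.816 and 19.926, so they need not form a set of their own. They shared between 3 and 10 identical values with each other, against 82 to 186 among arrays with the shared maximum. The array set with the shared maximum is unevenly spread over the treatments, so results are also given with it as a term and within it. The term gives the other arrays 1 common offset, which was assumed.

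The promoters show what the genes have in common apart from their role. In RefSeq windows of assembly GRCm38.p6, running from 250 bases before a start site to 50 after it, the CHR core TTTGAA, or its variant TTCGAA, was searched on both strands, and CCAAT likewise. TTCGAA reads alike on both strands, and a CHR match can share no more than 1 end letter with a CCAAT match. Windows were given for 47 of the 55 genes and not for Aurkb, Ccna2, Cdc25c, Incenp, Kif20a, Smc4, Spc24 and Tpx2. TTTGAA was present in 34 of the 47 (72.3%), against 20.2% of 27025 genes with a window. Either CHR form was present in 36 (76.6%), against 21.7% of all genes and 19.2% of 26 DNA replication genes. Within 50 bases of the start on either side, 31 of the 47 (66.0%) had a CHR form, against 6.12% of all genes and 7.69% of the replication genes. At least 2 CCAAT matches were found in 19 genes (40.4%), against 13.3% of all genes and 34.6% of the replication genes. A match is a run of letters and not a shown binding site.

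The promoters printed are those of the 3 genes with the largest called falls in DOX among genes with a CHR match, namely Plk1, Kif22 and Kif4, and of Ect2, the uncalled gene with the brightest control signal among those with a window. Each runs from 150 bases before the start to the last base before it, 5′ to 3′ on the gene's strand. Capitals mark TTTGAA or CCAAT, which read TTCAAA and ATTGG where the match is on the other strand. For Plk1 and Kif4, whose CHR match lies past the start, a 30-base stretch around the match follows. In this numbering the CHR matches begin at base 31 in Plk1, at -17 in Kif22, at 20 in Kif4 and at -114 in Ect2, and in the stretches shown CCAAT matches begin at -14 in Plk1, at -54 in Kif22, at -5 in Kif4 and at -96 and -55 in Ect2. Further CHR matches begin at -215 in Kif22 and at 40 in Ect2, outside the stretches shown.
Plk1 promoter, chr7:122159285-122159434, + strand: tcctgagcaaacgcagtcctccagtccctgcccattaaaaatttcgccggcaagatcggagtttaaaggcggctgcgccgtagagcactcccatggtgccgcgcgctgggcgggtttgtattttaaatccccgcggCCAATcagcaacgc
Plk1 match after the start, chr7:122159453-122159482, + strand: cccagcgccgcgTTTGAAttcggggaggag
Kif22 promoter, chr7:127042421-127042570, - strand: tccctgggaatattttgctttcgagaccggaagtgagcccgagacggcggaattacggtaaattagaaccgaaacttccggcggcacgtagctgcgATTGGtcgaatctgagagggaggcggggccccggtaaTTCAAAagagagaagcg
Kif4 promoter, chrX:100625915-100626064, + strand: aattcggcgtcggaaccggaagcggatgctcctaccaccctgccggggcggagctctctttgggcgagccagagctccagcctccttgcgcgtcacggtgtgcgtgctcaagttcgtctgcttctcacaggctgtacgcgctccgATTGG
Kif4 match after the start, chrX:100626072-100626101, + strand: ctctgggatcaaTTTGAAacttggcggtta
Ect2 promoter, chr3:27153879-27154028, - strand: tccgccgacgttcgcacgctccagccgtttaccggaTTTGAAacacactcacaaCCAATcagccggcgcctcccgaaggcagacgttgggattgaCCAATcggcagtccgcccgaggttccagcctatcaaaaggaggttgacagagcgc

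Doxorubicin-treated cells carried less RNA of most of these genes. In DOX minus Con, 38 of 55 fell (69.1%), against 7.53% of all genes, 1 rose, against 8.06% of all genes, and 16 did not pass the test. The median difference was -0.63 on the log2 scale, against -0.01 over all genes, and 3.99% of all genes lay at or under that median. All DOX arrays lay under all Con arrays in 48 of the 55, where this held for 17.2% of all genes. All lay above in 3, Cdc25c, Hmmr and Ckap2 (15.7% of all genes). A fall of at least 2-fold was called for 9 genes, 5 of them kinesins, and for 1.09% of all genes. Among the 1000 lowest differences of all 30050 genes were 21 of the 55, with Plk1 at rank 16 from the lowest. A fall here can mean fewer cells in G2 and mitosis or less RNA in each such cell, which bulk RNA cannot tell apart. With the array set as a term, 36 fell and 1 rose (median -0.61). In that fit 12.2% of all genes were called in either direction, against 15.6% in the main fit. Within the set of Con replicate 1 and the 3 DOX arrays the median was -0.63, the lone control being assumed to vary like the other groups.

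**Figure D1:**
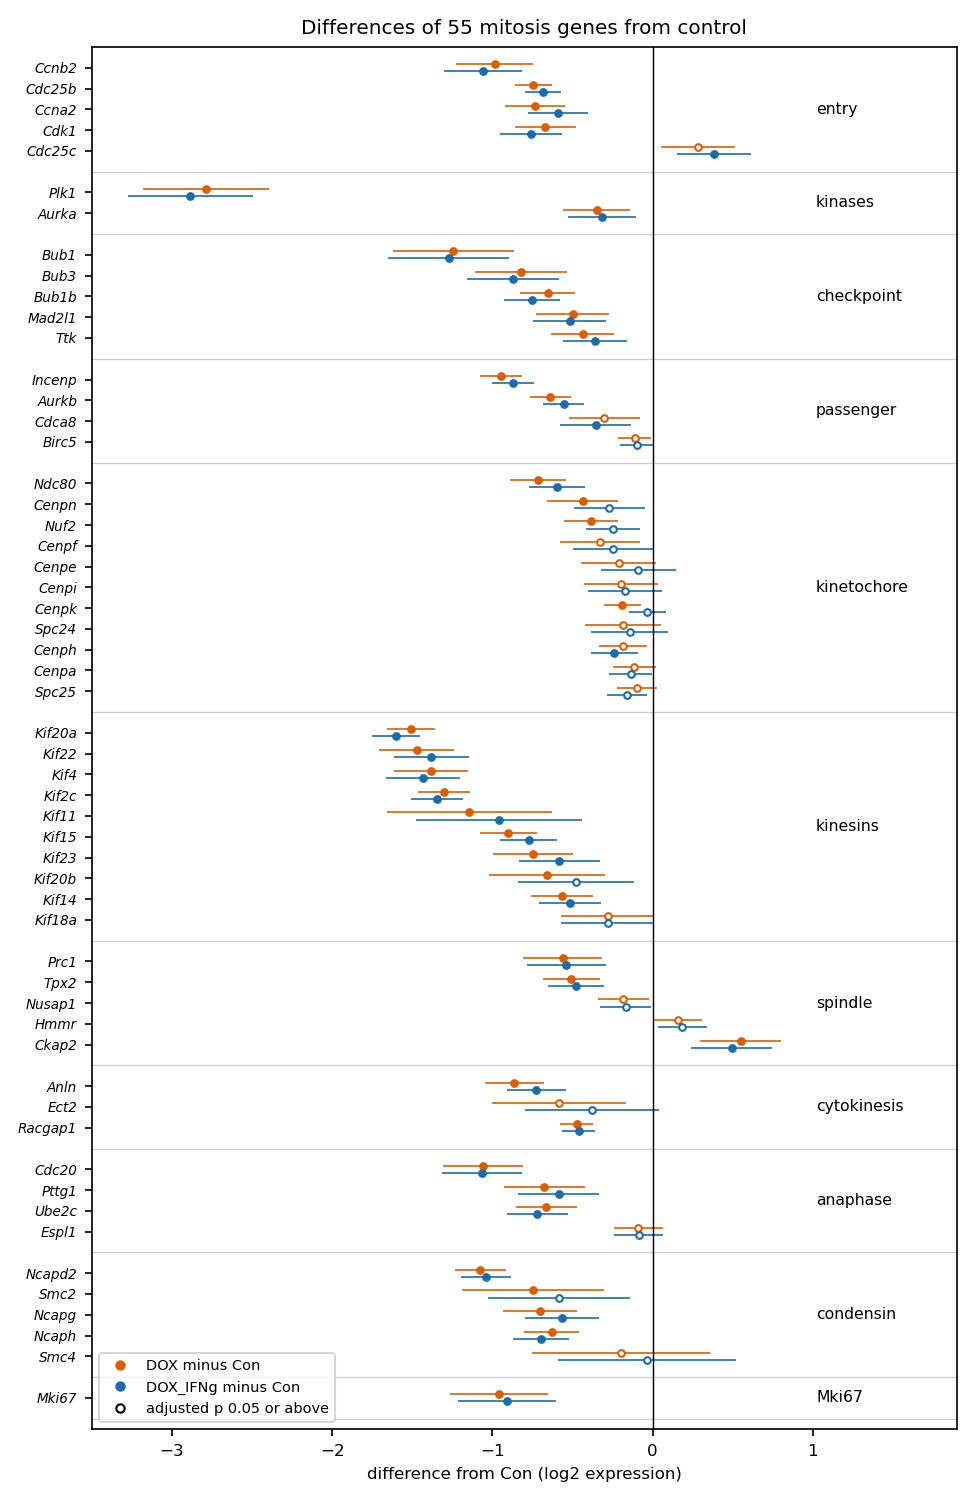
Differences from control of the 55 genes on the log2 scale (horizontal axis), grouped by role and sorted within a group; points are fitted differences of 3 arrays against 3, bars are 95% intervals, and open points did not pass the test. Plk1 lies far to the left at -2.79 and -2.88, the kinesins lie between -1.60 and -0.28, most kinetochore genes lie close to 0, and Ckap2, Cdc25c and Hmmr lie to the right of 0.

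The kinases that run mitosis were led by Plk1, the Polo kinase, which acts from centrosome maturation to cytokinesis. Its values were 9.43, 9.53 and 9.62 in the Con arrays, 6.79, 6.98 and 6.44 in DOX and 6.32, 6.69 and 6.92 in DOX_IFNg. The groups left a gap of more than 2 log2 units between every control and every treated array. It fell by 2.79 in DOX (SE 0.17, adjusted p = 2.51e-05), a 6.9-fold change, with means of 9.53 ± 0.09 and 6.74 ± 0.27 (SD, n = 3). Aurka, Aurora A, the kinase of centrosomes and spindle poles, lay at 5.81, 6.09 and 6.15 in Con and 5.65, 5.66 and 5.68 in DOX. The lowest control array was thus close to the DOX arrays, and the fall of 0.35 was small (SE 0.092, adjusted p = 0.0352). It missed the threshold when Con replicate 2 or 3, any DOX array or DOX_IFNg replicate 3 was left out (adjusted p between 0.054 and 0.113). With the array set as a term it missed the threshold too (adjusted p = 0.187). Within the array set the difference was -0.14.

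Entry into mitosis is set by Cdk1 with its cyclins, which Cdc25 phosphatases switch on. Ccnb2, cyclin B2, had values of 6.60, 6.42 and 6.18 in Con and 5.44, 5.45 and 5.34 in DOX. Its fall of 0.99 (SE 0.11, adjusted p = 0.000395) left no overlap between the groups. Cdc25b lay at 5.79, 5.76 and 5.70 in Con and 4.96, 5.03 and 5.03 in DOX, a fall of 0.74 with little spread within either group (SE 0.050, adjusted p = 3.36e-05). Ccna2, cyclin A2, which serves S phase and G2, lay at 5.66, 5.43 and 5.34 in Con and 4.75, 4.78 and 4.69 in DOX and fell by 0.74 (SE 0.082, adjusted p = 0.000486). Cdk1 itself fell by 0.67 (adjusted p = 0.000878), from 6.14 ± 0.17 to 5.47 ± 0.03. Thus 4 of 5 genes of this group fell.

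Cdc25c, the fifth, went the other way, but at signals under background in every array. It lay at 3.94, 3.89 and 3.85 in Con, 4.29, 4.22 and 4.03 in DOX and 4.07, 4.42 and 4.34 in DOX_IFNg. Both treated groups lay above control without overlap. The difference of 0.29 in DOX did not pass (SE 0.10, adjusted p = 0.102), except without DOX_IFNg replicate 1 (adjusted p = 0.0439). In DOX_IFNg minus Con it was called at 0.38 (SE 0.10, adjusted p = 0.0328). That call was lost without any single Con array, without DOX replicate 2 and without DOX_IFNg replicates 2 or 3 (adjusted p up to 0.109).

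All 5 genes of the spindle checkpoint, which holds anaphase until every chromosome is attached, fell in DOX. Bub1, a kinase placed at unattached kinetochores, lay at 6.78, 6.65 and 6.07 in Con and 5.15, 5.36 and 5.26 in DOX. Con replicate 3 was well under the other controls and still above every DOX array, and the fall was 1.24 (SE 0.16, adjusted p = 0.00119). Bub3, the partner through which Bub1 and Bub1b reach the kinetochore, lay at 7.86, 7.81 and 7.67 in Con and 6.98, 7.13 and 6.78 in DOX, a fall of 0.82 (SE 0.13, adjusted p = 0.00254). Bub1b, the checkpoint inhibitor BubR1, lay at 5.73, 5.81 and 5.89 in Con and 5.10, 5.17 and 5.20 in DOX, a fall of 0.65 (SE 0.075, adjusted p = 0.000573). No array of these genes crossed between the groups. Mad2l1, which binds Cdc20 to block it, fell by 0.50 (adjusted p = 0.00999) and Ttk, the kinase Mps1 that starts the signal, by 0.44 (adjusted p = 0.0096). The mean of Ttk was under background in every group, and that of Mad2l1 in both treated groups. With the array set as a term, Mad2l1 and Ttk missed the threshold (adjusted p = 0.0653 and 0.0536). Within the set, where Con replicate 1 is the lone control, Mad2l1 and Bub3 missed it.

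The chromosomal passenger complex corrects faulty attachments and later marks the cleavage plane, and its 4 genes divided into 2 that fell and 2 that did not pass. Incenp, the scaffold, lay at 7.26, 7.28 and 7.20 in Con and 6.23, 6.30 and 6.37 in DOX, a fall of 0.95 (SE 0.057, adjusted p = 2.36e-05). Aurkb, Aurora B, the kinase, lay at 5.29, 5.31 and 5.36 in Con and 4.65, 4.78 and 4.61 in DOX and fell by 0.64 (SE 0.057, adjusted p = 0.000148), to a mean under background. Both had control arrays close to each other and DOX arrays far under them. Cdca8, borealin, lay at 5.60, 5.56 and 5.95 in Con and 5.38, 5.38 and 5.44 in DOX, a difference of -0.30 (SE 0.096, adjusted p = 0.0737). Its Con replicate 3 was the high array, against the usual order of the controls. Birc5, survivin, gave signals under background in all arrays, with a difference of -0.11 (SE 0.044, adjusted p = 0.14), so that little can be read from it.

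At the centromere and kinetochore, 4 of 11 genes fell and 7 did not pass, with a median difference of -0.20. Of the 11, 5 lay above background on average over all arrays. Ndc80, the microtubule-binding subunit of the outer kinetochore, lay at 6.04, 5.85 and 5.78 in Con and 5.18, 5.25 and 5.09 in DOX and fell by 0.72 (SE 0.076, adjusted p = 0.000381). Its partner Nuf2 lay at 4.47, 4.63 and 4.47 in Con and 4.22, 4.02 and 4.19 in DOX, a fall of 0.38 at signals under background (SE 0.073, adjusted p = 0.00777), which missed the threshold with the array set as a term (0.0519). The remaining subunits of that complex did not pass, Spc24 at -0.18 (adjusted p = 0.315) and Spc25 at -0.10 (adjusted p = 0.304). So the subunits of the Ndc80 complex gave unequal differences on the array. Control means were 5.89 for Ndc80, 5.60 for the uncalled Spc24 and 4.53 for the called Nuf2, and Spc25 too was under background. The order of brightness was thus not that of the differences, whose cause was not tested.

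Of the inner kinetochore, which sits on centromeric chromatin throughout the cycle, Cenpn lay at 5.35, 5.18 and 5.28 in Con and 4.84, 4.90 and 4.75 in DOX and fell by 0.44 (SE 0.097, adjusted p = 0.0165). It missed the threshold when Con replicate 1, or DOX replicate 1 or 3, was left out (adjusted p between 0.0538 and 0.0601). Cenpk fell by 0.19 (adjusted p = 0.0359), a call lost without any array other than Con replicate 1 (adjusted p between 0.0529 and 0.112). Cenph (-0.18), Cenpi (-0.20) and Cenpa, the centromeric histone (-0.11), did not pass (adjusted p between 0.0989 and 0.266). Neither did Cenpe, a kinetochore motor (-0.21, adjusted p = 0.234), nor Cenpf (-0.33, adjusted p = 0.0821). Cenpf was called without Con replicate 3 (adjusted p = 0.0243). With the array set as a term, Cenpf (adjusted p = 0.0222) and Cenpe (0.00761) were called. That same term took away the calls of Cenpn (adjusted p = 0.0965) and Cenpk (0.158).

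Kinesins, the motors that build the spindle and move chromosomes, were the group with the largest median among those of more than 2 genes, -1.02, and 9 of 10 fell. Kif20a, which carries the passenger complex to the midzone, lay at 7.45, 7.33 and 7.39 in Con, 5.85, 5.99 and 5.80 in DOX and 5.72, 5.79 and 5.85 in DOX_IFNg. The control arrays lay close together and far above any treated array, and the fall in DOX was 1.51 (SE 0.065, adjusted p = 6.51e-06). Kif22, a motor on chromosome arms, lay at 7.32, 7.26 and 7.33 in Con and 5.89, 5.94 and 5.66 in DOX, a fall of 1.47 (SE 0.10, adjusted p = 4.1e-05). Kif4, a chromosome motor that also shapes the midzone, lay at 6.56, 6.52 and 6.19 in Con and 5.09, 5.03 and 4.99 in DOX, a fall of 1.38 (SE 0.10, adjusted p = 5.32e-05). The 3 genes thus fell by between 2.61-fold and 2.84-fold without overlap. Kif2c, which takes microtubules apart at the centromere, fell by 1.30 (adjusted p = 1.67e-05).

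Kif11, the motor that pushes spindle poles apart, showed the widest spread among the called kinesins. Its values were 8.84, 8.66 and 7.89 in Con, 7.31, 7.38 and 7.27 in DOX and 7.36, 7.77 and 7.39 in DOX_IFNg. Con replicate 3 lay well under the other controls but above all treated arrays, and the fall was 1.14 (SE 0.23, adjusted p = 0.00937). Kif15, a second pole-separating motor, fell by 0.90, Kif23, a subunit of centralspindlin, by 0.75, and Kif14, a cytokinesis motor, by 0.57 (adjusted p between 0.000127 and 0.00227). Kif20b, needed in late cytokinesis, lay at 6.25, 5.77 and 5.54 in Con, 5.16, 5.17 and 5.25 in DOX and 5.51, 5.35 and 5.25 in DOX_IFNg. Here too the controls were spread over more than the gap to DOX, and the fall of 0.66 (SE 0.16, adjusted p = 0.0239) lost its call without Con replicate 2 or any DOX array (adjusted p between 0.0519 and 0.0807). Within the array set Kif20b differed by -1.06. Kif18a, which dampens chromosome movement at the spindle equator, was the kinesin that did not pass (-0.28, adjusted p = 0.195), with group means under background. It was called, however, without Con replicate 3 (adjusted p = 0.0296) and with the array set as a term (0.0327).

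**Figure D2:**
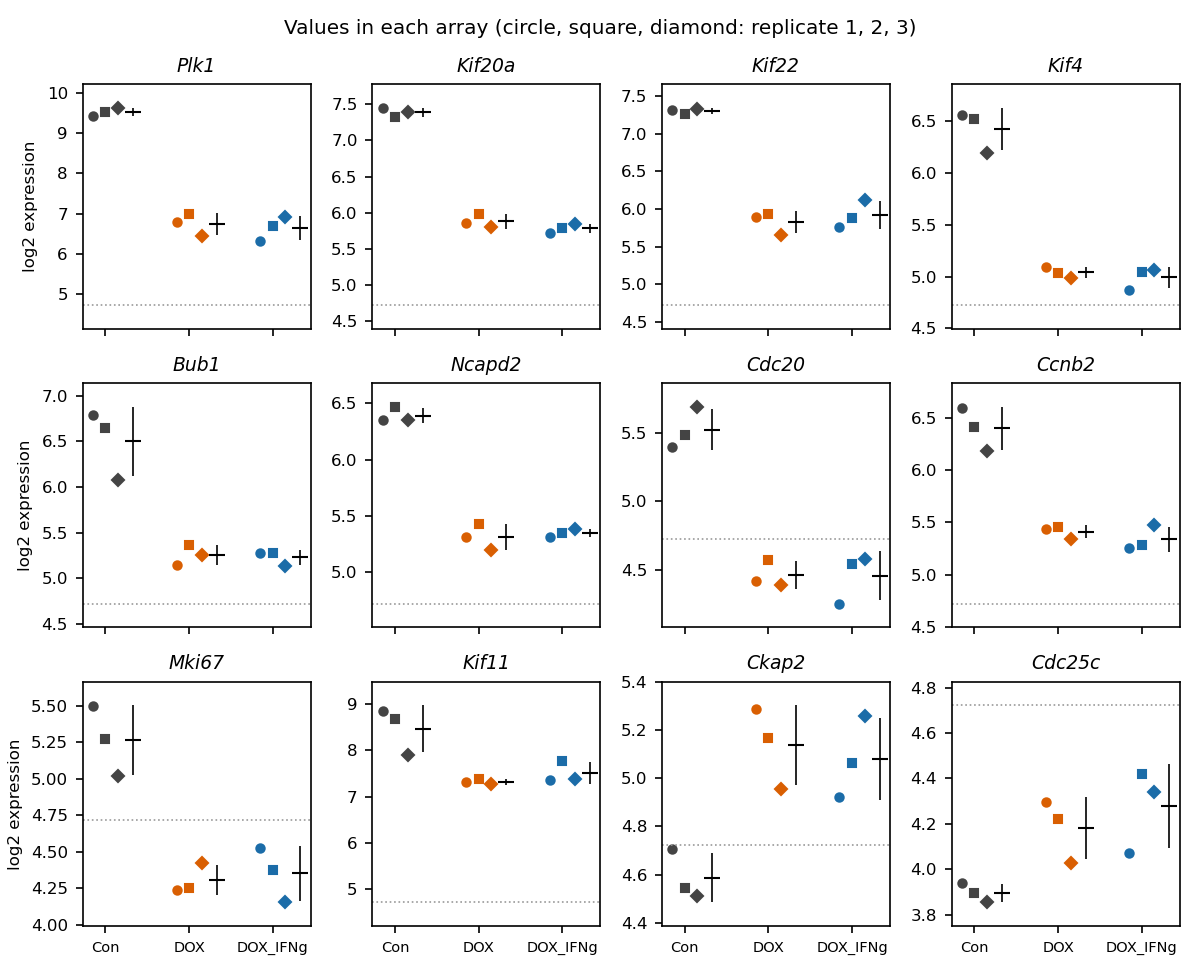
Log2 expression (vertical axes, each with its own range) of 12 genes in each of the 9 arrays, with the group mean and SD beside the points and the background limit of 4.72 as a dotted line. Treated arrays lie under all controls in 10 panels and above them in those of Ckap2 and Cdc25c, and DOX and DOX_IFNg arrays lie at like heights, while Con replicate 3 (diamond) is clearly the lowest control for Kif4, Bub1, Ccnb2, Mki67 and Kif11.

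The proteins that bind spindle microtubules without being motors gave the least uniform picture, with 2 of 5 lower, 1 higher and 2 not passing. Prc1, which bundles the antiparallel microtubules of the midzone, lay at 6.41, 6.36 and 6.03 in Con and 5.74, 5.79 and 5.58 in DOX, a fall of 0.56 (SE 0.11, adjusted p = 0.00771). Tpx2, which activates Aurora A on the spindle, lay at 5.97, 5.85 and 5.67 in Con and 5.33, 5.38 and 5.27 in DOX, a fall of 0.51 (SE 0.077, adjusted p = 0.00243). Both were without overlap between the groups. Ckap2, a protein of spindle microtubules and poles, was the gene that rose. It lay at 4.70, 4.55 and 4.51 in Con, 5.29, 5.17 and 4.96 in DOX and 4.92, 5.06 and 5.26 in DOX_IFNg, from under background to above it. The rise was 0.55 in DOX (SE 0.11, adjusted p = 0.0101), and within the array set the call was lost (adjusted p = 0.154). Nusap1 (-0.18, adjusted p = 0.125) and Hmmr (0.16, adjusted p = 0.163) did not pass, and all DOX arrays of Hmmr lay above its controls. Nusap1 was under background in every array.

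Cytokinesis is started by Ect2, which activates RhoA at the equator once centralspindlin is in place there. Anln, anillin, the scaffold of the contractile ring, lay at 5.98, 5.89 and 5.68 in Con and 4.99, 4.94 and 5.03 in DOX and fell by 0.86 (SE 0.081, adjusted p = 0.000194). Racgap1, the partner of Kif23 in centralspindlin, lay at 4.89, 4.88 and 4.95 in Con and 4.43, 4.42 and 4.44 in DOX and fell by 0.47 (SE 0.044, adjusted p = 0.000195). For both, no treated array reached a control array. Ect2 lay at 7.09, 6.88 and 6.30 in Con, 6.10, 6.14 and 6.27 in DOX and 6.34, 6.55 and 6.24 in DOX_IFNg. Its Con replicate 3 came close to the highest DOX array, and the difference of -0.59 did not pass (SE 0.18, adjusted p = 0.0675), although it did without Con replicate 3 (adjusted p = 0.00242), with the array set as a term (0.0269) and within that set (0.013).

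Chromatids separate when Cdc20 turns on the anaphase-promoting complex, which with the ubiquitin enzyme Ube2c destroys securin, the product of Pttg1, and so frees separase, the product of Espl1. Cdc20 lay at 5.39, 5.48 and 5.69 in Con and 4.42, 4.57 and 4.39 in DOX, a fall of 1.06 to signals under background (SE 0.11, adjusted p = 0.000314). Pttg1 lay at 5.25, 5.51 and 5.34 in Con and 4.57, 4.81 and 4.69 in DOX, a fall of 0.68 (SE 0.11, adjusted p = 0.00359), whose call was lost within the array set (adjusted p = 0.0957). Ube2c lay at 6.25, 6.25 and 6.46 in Con and 5.58, 5.81 and 5.57 in DOX, a fall of 0.66 (SE 0.084, adjusted p = 0.000973). Transcripts of securin, Cdc20 and Ube2c thus fell, and those of the complex itself are counted further below. Espl1 lay at 5.48 ± 0.01 in Con and 5.39 ± 0.01 in DOX, a difference of -0.09 (95% interval -0.24 to 0.06, adjusted p = 0.47).

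Condensin compacts chromosomes as they enter mitosis, and 4 of its 5 genes fell. Ncapd2, a regulatory subunit, lay at 6.35, 6.47 and 6.35 in Con and 5.31, 5.43 and 5.20 in DOX, a fall of 1.07 (SE 0.069, adjusted p = 2.8e-05). Ncapg, a second regulatory subunit, lay at 5.55, 5.45 and 5.16 in Con and 4.67, 4.71 and 4.67 in DOX, a fall of 0.70 (SE 0.10, adjusted p = 0.00172). Ncaph, the third, fell by 0.63 (adjusted p = 0.000709). The regulatory subunits of condensin I all fell, whereas the core ATPases, which condensin II also uses, had wide controls. Smc2 lay at 7.002, 6.78 and 6.19 in Con and 5.85, 5.87 and 5.997 in DOX, a fall of 0.75 (SE 0.19, adjusted p = 0.0321). It missed the threshold when Con replicate 1 or 2, any DOX array or DOX_IFNg replicate 2 was left out (adjusted p between 0.0535 and 0.102). Smc4 differed by -0.20 (SE 0.24, adjusted p = 0.693), and its groups overlapped. Mki67, whose protein coats mitotic chromosomes and serves as a marker of cycling cells, lay at 5.50, 5.27 and 5.02 in Con, 4.24, 4.25 and 4.43 in DOX and 4.53, 4.38 and 4.15 in DOX_IFNg. It fell by 0.96 (SE 0.13, adjusted p = 0.00158) from above background in each control array to under it in each treated array.

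The size of a gene's difference went with the brightness of its cluster. Brightness depends on the probes as well as on the RNA, so it does not rank the genes by amount. Of 15 genes with a control mean under log2 5, 4 fell, with a median difference of -0.18. Of 21 genes between 5 and 6, 17 fell (median -0.66), and of 19 genes at 6 or more, 17 fell (median -0.95). Among all genes 7.53% fell, and among those above background 15.8%. Shares of all genes in these ranges of control mean were not counted, so the pattern may not be particular to these genes. Over the 55 genes, Pearson's r between control mean and difference was -0.79 and Spearman's rho -0.77, as a description of points that share the same 9 arrays and whose control values enter both measures. Cenpk, Mad2l1, Aurkb, Racgap1, Cdc20, Pttg1, Ncapg and Mki67 passed from above background in Con to at or under it in DOX, so their falls can be understated. Among the 42 genes above background on average, 34 fell (81%), against 15.8% of all genes above background. That average includes the control arrays. Mad2l1 and Cdc20 passed it through Con alone, being under background in both treated groups, and both are counted as falls.

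**Figure D3:**
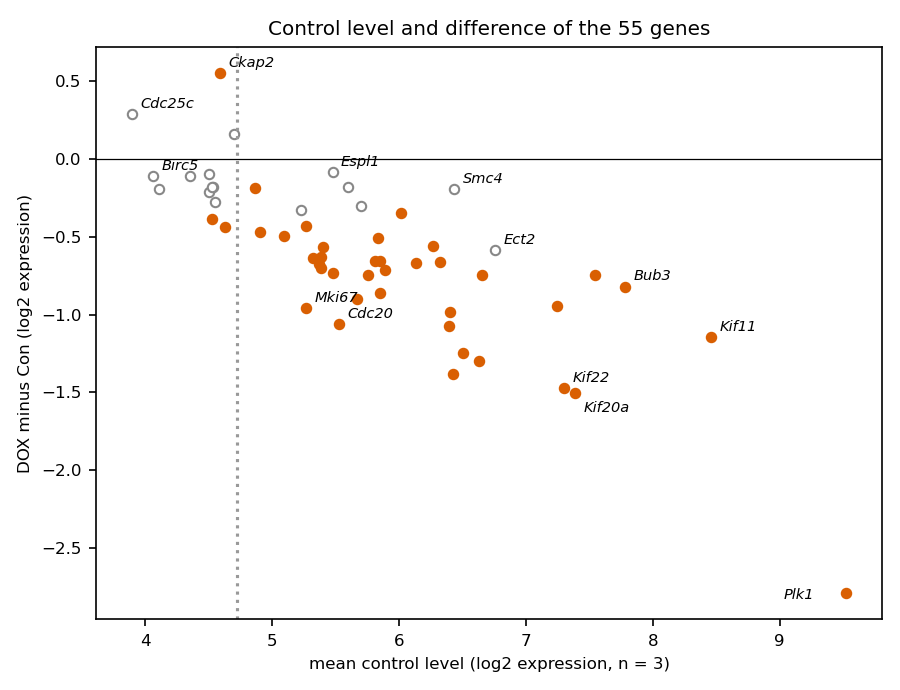
DOX minus Con (vertical axis, log2 expression) against the mean control level (horizontal axis, log2 expression) for the 55 genes, with filled points for called genes and the background limit of 4.72 as a dotted line. Left of the line Ckap2 is the highest point and Ttk, at -0.44, the lowest, and those with control levels of 6 or more lie lowest, ending at Plk1, with Smc4 and Ect2 among the exceptions that did not pass.

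Genes with and without a CHR match differed in the size of the difference, but they also differed in brightness. The 36 genes with a CHR form had a median difference of -0.69 in DOX minus Con, and 28 of them fell. The 11 without one had a median of -0.21, and 5 fell. Their median control level was 4.53, under the background limit of 4.72, against 5.85 for the 36. Without a CHR form, Pttg1, Ncaph, Mad2l1 and Cenpk had control means above background, and all of them fell. Ttk, Cenpa, Spc25, Hmmr and Ckap2 had a CHR form and control means under background, and of these only Ttk fell. The parts of CHR form and brightness were not tested apart. By CCAAT count the medians were -0.66 for 19 genes with at least 2 matches and -0.60 for 28 with fewer. The 8 genes with a CHR form that were not called lower were Ect2, Cenpf, Cdca8, Cenpa, Spc25, Espl1, Hmmr and Ckap2, and the 5 that fell without one in this window were Pttg1, Ncaph, Mad2l1, Nuf2 and Cenpk.

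Other genes of the mitotic apparatus were lower in part, against 7.53% of all genes lower and 8.06% higher. Their lists were set by role, again with earlier results of these data known. Of 15 further mitotic kinases and phosphatases, 11 fell and 1 rose, with a median of -0.39. Wee1, the kinase that restrains Cdk1, fell by 1.26 (SE 0.070, adjusted p = 1.73e-05) and Pbk by 1.00 (SE 0.11, adjusted p = 0.000348). Of 23 further spindle, kinesin and cytokinesis genes, 15 fell and 3 rose (median -0.36). Shcbp1, which acts at the midbody, fell by 1.87 (SE 0.18, adjusted p = 0.000257), whereas Gtse1, a microtubule protein of G2, rose by 0.96 (SE 0.11, adjusted p = 0.000626). Of 25 further kinetochore genes, 11 fell and 1 rose (median -0.24), led by Kntc1 (-0.77) and Pmf1 (-0.60), and of 3 condensin II genes 2 fell, Ncapg2 (-0.41) and Ncaph2 (-0.40).

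The anaphase-promoting complex, cohesin and the complexes that bind these promoters were also counted. Beside their counts, the share of all genes that fell was 7.53%, or 15.8% of those above background, and the share that rose 8.06%, or 17.5%. Of 17 genes of the anaphase-promoting complex and its partners, 4 fell and 1 rose (median -0.13), with Anapc5 at -0.90 (adjusted p = 0.00766) and Ube2s at -0.74 (adjusted p = 0.0437). Of 15 genes of cohesin, the ring that holds sister chromatids, 3 fell and 1 rose (median -0.13), with Rad21 at -0.66 (adjusted p = 0.0115) and Esco2 at -0.59 (adjusted p = 0.00657). Of 8 genes of MuvB, DREAM and B-Myb, 4 fell and 2 rose (median -0.16). Lin37, a MuvB subunit, rose by 0.99 (SE 0.12, adjusted p = 0.000785), and Rbl1, the pocket protein p107, fell by 0.94 (SE 0.11, adjusted p = 0.000739). For comparison, 26 of 33 DNA replication genes fell and 3 rose, with a median of -0.52. The lowest of them, Mcm6, a helicase subunit, and Rrm1, a ribonucleotide reductase subunit, fell by 2.63 and 2.62, and 13 of the 33 fell at least 2-fold against 9 of the 55; no test of the difference between these lists was made.

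Doxorubicin with interferon gamma gave values close to those of doxorubicin alone. In DOX_IFNg minus Con, which uses the same control arrays as DOX minus Con, 35 of 55 fell (63.6%), against 9.41% of all genes, 2 rose, against 8.01%, and 18 did not pass. The median was -0.54, against -0.02 over all genes. All DOX_IFNg arrays lay under all Con arrays in 41 of the 55 (18.5% of all genes) and above them in 3 (14.5%). Among the 42 genes above background on average 31 fell, against 19.7% of all such genes, with Mad2l1 and Cdc20 again among them through Con alone. A fall of at least 2-fold was called for 9 genes, against 1.46% of all genes. Plk1 fell by 2.88 (SE 0.17, adjusted p = 2.23e-05), Kif20a by 1.60, Kif4 by 1.43, Kif22 by 1.38, Kif2c by 1.35, Bub1 by 1.27, Cdc20 by 1.07, Ccnb2 by 1.06 and Ncapd2 by 1.04, with an adjusted p of at most 0.000983 for these 9. By role, all 5 checkpoint genes, 8 of 10 kinesins, 3 of 4 passenger genes, 3 of 4 genes of anaphase, 3 of 5 condensin genes and 2 of 11 kinetochore genes fell. With the array set as a term 36 fell and 1 rose (median -0.56). In that fit 15.9% of all genes were called in either direction, against 17.4% in the main fit. Within the set, where Con replicate 1 is the lone control, the median was -0.64.

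Several calls of this comparison rested on particular arrays. Aurka (-0.32, adjusted p = 0.0487) was lost without any array other than Con replicate 1 (adjusted p between 0.0513 and 0.153), and Cdca8 (-0.36, adjusted p = 0.0362) without any single treated array (0.0543 to 0.105). Without Con replicate 3 Cdca8 differed by -0.23. Cenph (-0.24, adjusted p = 0.0364) was lost without any array other than Con replicate 3 or DOX replicate 1 (0.0503 to 0.111). Ttk (-0.36, adjusted p = 0.0227) was lost without Con replicates 1 or 2 or DOX_IFNg replicates 1 or 2 (up to 0.08), and Kif11 (-0.96, adjusted p = 0.0204) without Con replicates 1 or 2 or DOX_IFNg replicates 1 or 3 (up to 0.0727). Ckap2 rose by 0.49 (adjusted p = 0.0159), a call lost without Con replicates 2 or 3 (0.056 and 0.0504), and within the array set its difference was 0.29 (adjusted p = 0.364). Without Con replicate 3, the uncalled Ect2 (-0.38), Smc2 (-0.58), Kif20b (-0.48) and Kif18a (-0.28) were called (adjusted p between 0.00397 and 0.029). Cenpn (-0.27) was called without DOX_IFNg replicate 3 (0.0121) and Nuf2 (-0.25) without DOX replicate 2 (0.0385).

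Set directly against doxorubicin alone, the addition of interferon gamma was followed by no call among these genes. In DOX_IFNg minus DOX, limma called 0 of 55, as it called 0 of all 30050 genes (0%), and the lowest adjusted p of the 55 was 0.976. Over all genes the differences ran from -0.92 to 0.78, so no gene measured differed 2-fold. The absence of calls is thus not particular to these genes, and whether the cells responded to interferon gamma was not tested. At an unadjusted p under 0.05 there was 1 of 55, Cenpk, against 5% of all genes. Differences of the 55 genes ran from -0.10 to 0.21 with a median of 0.03, and 37 of 55 were above 0. The median 95% interval was ±0.21. All of the interval lay within ±0.25 for 20 genes and within ±0.5 for 50, and the widest reached from -0.49 (Plk1) at the low end to 0.72 (Smc4) at the high end. Differences smaller than these intervals were not detectable with 3 arrays a group. The intervals are for single genes, so differences somewhat beyond them can also go uncalled after adjustment over 30050 genes.

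The largest differences of this comparison were those of Ect2, Kif11 and Kif20b, whose arrays are given above. Ect2 differed by 0.21 (95% interval -0.21 to 0.63, adjusted p = 0.979), Kif11 by 0.19 (-0.33 to 0.70, adjusted p = 0.98) and Kif20b by 0.18 (-0.18 to 0.54, adjusted p = 0.979). Only for Kif20b did all DOX_IFNg arrays lie above all DOX arrays. That order was also seen in Ccna2, Cenpk, Nuf2, Kif15, Kif23 and Anln, 7 of 55 in all, and the reverse in Cdca8, where 4.56% and 6.69% of all genes showed such orders. Cenpk lay at 4.82, 4.89 and 4.88 in Con, 4.70, 4.72 and 4.596 in DOX and 4.83, 4.83 and 4.83 in DOX_IFNg, a difference of 0.16 between the treated groups (unadjusted p 0.0136 from limma, adjusted p = 0.976). Plk1 differed by -0.10 (95% interval -0.49 to 0.29), with DOX and DOX_IFNg arrays interleaved.

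**Figure D4:**
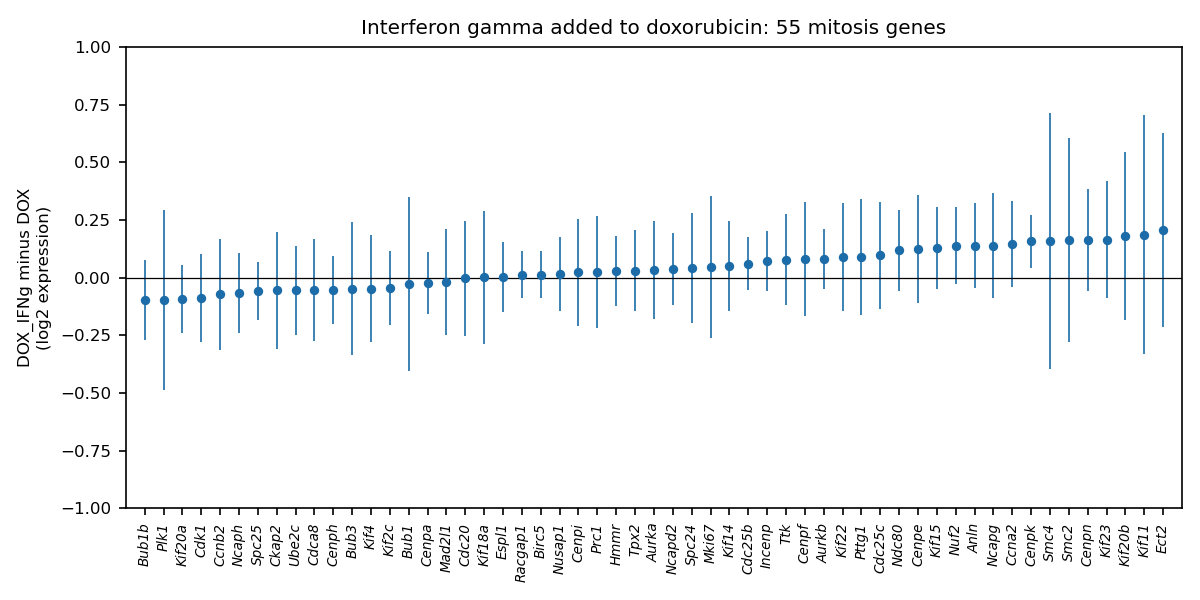
DOX_IFNg minus DOX on the log2 scale (vertical axis) for the 55 genes sorted by difference, with points for fitted differences of 3 arrays against 3 and bars for 95% intervals. The points run from -0.10 to 0.21, nearly all bars cross 0, and the widest bars belong to Smc4, Kif11, Smc2 and Ect2.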

How the data were processed

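RNA of 9 arrays, 3 per group, was measured on a mouse whole-transcript microarray, and the authors deposited 1 table of log2 values for 65527 transcript clusters, made with RMA (background correction, normalisation and probe summary together), per the submitters' processing notes. The version and settings of RMA are not given in the sources used here. Symbols came from the platform's annotation: 30376 clusters had 1 symbol, 2117 had several and 33034 had none listed. The cluster of highest mean was kept for each symbol, which left 30050 genes, 245 of which had more than 1 cluster. Values ran from 2.29 to 19.93, and array medians from 4.08 to 4.17. With 3 arrays a group, the median 95% interval of a difference was ±0.19 over all genes.

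Differences were fitted with limma 3.58.1 in R 4.3.3 (lmFit and eBayes on all 9 arrays, group as the only term, 6 residual and 2.41 prior degrees of freedom), with Benjamini-Hochberg adjustment across the 30050 genes. Fold changes are from array signals, which compress large changes. The members and all gene lists were chosen with earlier results of these data known. Values in every array are printed for the 3 genes of each role with the largest DOX minus Con difference, for genes called higher and for the 3 with the largest DOX_IFNg minus DOX difference. Up to 2 called genes of each other list are named, by the same size. Genes outside this rule are named where a value is singled out.

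Alternatives were quantile normalisation, only genes above background, only the compared groups, the replicate number as a block, a trended robust prior, the mean of a gene's clusters, the array set as a term, only protein-coding genes and each array left out. The fit within the array set was added after the data were seen. Older symbols were used as the platform gives them.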

Additional observations from a re-analysis of the deposited data

How the results depend on the processing

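No gene's called difference changed sign under any alternative run. In DOX minus Con the number of genes that fell (38) lay between 34 and 40 over the other settings and between 33 and 39 with 1 array left out. The share of all genes called in either direction was 15.6% in the main fit, 12.2% with the array set as a term and 39.6% with only genes above background. It lay between 11.1% and 15.2% with 1 array left out. The number that rose (1) was 0 within the array set and between 1 and 2 with 1 array left out, and the median lay between -0.66 and -0.56 with 1 array left out. In DOX_IFNg minus Con the number that fell (35) lay between 30 and 36 over the other settings and between 30 and 38 with 1 array left out. Of all genes, 17.4% were called in either direction in the main fit, 15.9% with the array set as a term and 44% with only genes above background. That share lay between 12.5% and 16.6% with 1 array left out. The number that rose (2) was 1 with only genes above background, where Cdc25c, under background, is not tested. It was also 1 with only the compared groups, with the replicate block and with the array set as a term. With 1 array left out it lay between 0 and 2. The median was -0.59 with only genes above background, where each gene's difference stays as it was and only the 42 genes kept are counted. It was -0.64 within the array set and between -0.61 and -0.47 with 1 array left out, and the causes of these shifts were not tested. DOX_IFNg minus DOX gave 0 calls among the 55 genes in every setting (over all 30050 genes, limma called 1 without Con replicate 3), with medians between 0.02 and 0.05 with 1 array left out. Of 39 calls in DOX minus Con, 34 kept their side of the threshold whichever array was left out and 28 did in every setting; of 37 in DOX_IFNg minus Con, 30 and 28 did. With the replicate number as a replicate block, 37 and 32 genes fell, where 14.9% and 16.6% of all genes were called in either direction. Deviations from the group means, over genes above background, were correlated between arrays of different groups. For arrays of one number these correlations lay between -0.32 and 0.55. By this measure 4 of 9 arrays correlated best with an array of their own number, so the numbers were not taken as pairs.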
